A study of Mus musculus with 2 samples.

Results

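The Toll-like receptors described here are 10 mouse genes, taken as a fixed family list out of the 22180 genes that the array could name by a single-symbol probe set. Tlr1, Tlr2, Tlr4, Tlr5 and Tlr6 are the 5 surface members, and Tlr3, Tlr7, Tlr8, Tlr9 and Tlr13 are the 5 endosomal members. Each gene had 1 probe set, so none of the values depends on a choice between probe sets. RNA came from CD11b-positive, Ly6C-high monocytes sorted without CD3 and Ly6G from the colon lamina propria of C57BL/6 mice, either wild type (WT) or lacking Nlrp6 (Nlrp6-/-), an inflammasome-family sensor. Both groups had received 10 mg/kg of the carcinogen azoxymethane and, from day 5, 2% dextran sodium sulfate, which injures the colon epithelium, for 5 days, and were sampled on day 10. The number of mice behind each RNA, their age and whether RNA was pooled are not given in the sources used here. Each genotype was measured on 1 Affymetrix Mouse Gene 2.1 ST array, so no difference has an error, an interval or a p-value, and every value describes these 2 arrays.

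Toll-like receptors recognise microbial molecules through a leucine-rich repeat domain and signal through an intracellular TIR domain. Surface members bind lipoproteins, lipopolysaccharide and flagellin, whereas endosomal members bind RNA or DNA taken up into endosomes. Nearly all signal through the adaptor MyD88 to NF-kB. Tlr3 uses the adaptor TRIF instead, Tlr4 uses both, and signalling from endosomes can induce type I interferon. Colon monocytes that enter inflamed tissue are among the cells that use these receptors to respond to bacteria.

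The surface receptors detected in these cells were all slightly lower on the Nlrp6-/- array, and the endosomal receptors went in both directions. Tlr7, a receptor for single-stranded RNA, and its close relative Tlr8 were 1.94-fold and 1.87-fold higher in Nlrp6-/-. Tlr13, the mouse receptor for bacterial ribosomal RNA, was 1.80-fold higher in WT. Tlr9, the receptor for bacterial DNA, hardly differed, and Tlr3, the receptor for double-stranded RNA, was above the detection floor in Nlrp6-/- only. A level counts as detected when it exceeds the floor of its array, set so that 95% of 1400 odorant and pheromone receptor probe sets lie under it, which was 3.26 in WT and 3.23 in Nlrp6-/- on the log2 scale. Of the 10 members 8 were above the floor on both arrays, Tlr3 on 1 and Tlr5 on neither.

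A gene was counted as different when its levels, or its bound where 1 array was below the floor, were at least 1.5-fold apart. By this rule 2 of the 9 detected members were higher in Nlrp6-/-, against 6.22% of the 9525 genes detected on at least 1 array, and 1 was lower, against 3.06%. In either direction the background was 9.27%. No member was 2-fold apart, where 1.62% of genes were higher and 0.325% lower. The members' median difference, in log2 units and always Nlrp6-/- minus WT, was -0.18, beside 0.01 over all 9525 genes. That median hides the spread. The SD of the differences among the 8 members above both floors was 0.63, and over all 8560 such genes it was 0.38.

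**Figure D1:**
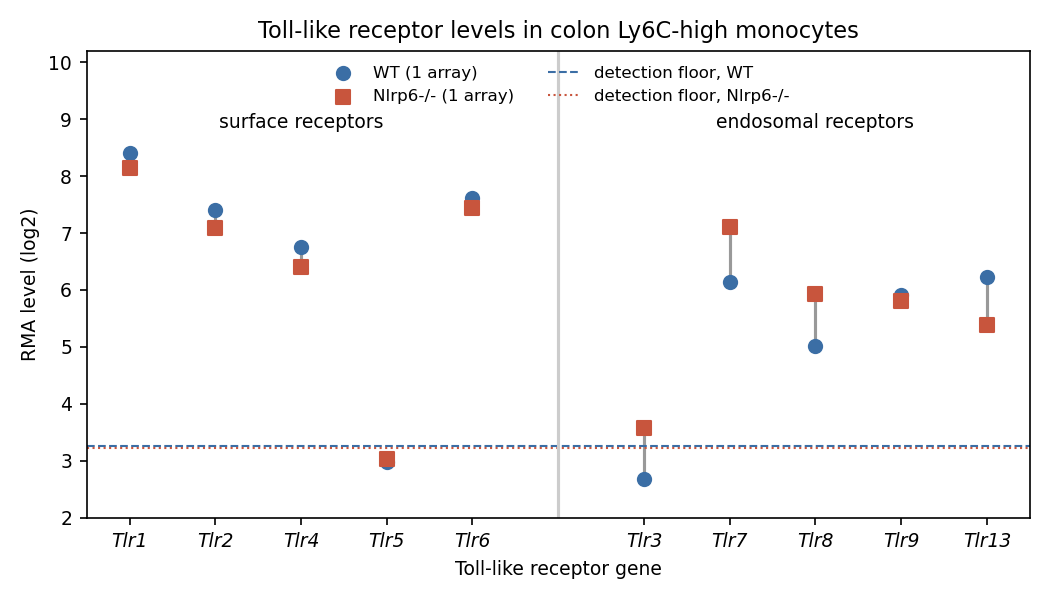
Level of each Toll-like receptor gene (log2 RMA value, vertical axis) on the WT array (circles) and the Nlrp6-/- array (squares), 1 array each, with the detection floors as dashed and dotted lines. Tlr7 and Tlr8 sit higher in Nlrp6-/- and Tlr13 lower, Tlr1, Tlr2, Tlr4 and Tlr6 lie slightly lower, and Tlr5 is under both floors. Heights of different genes are not comparable, because each comes from its own probes.

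Among the surface receptors, Tlr2, which pairs with Tlr1 or Tlr6 to bind bacterial lipoproteins, had a level of 7.41 in WT against 7.08 in Nlrp6-/-, a difference of -0.33. Its partner Tlr1, which favours triacylated lipoproteins, was at 8.41 and 8.14, a difference of -0.27. Tlr6, the partner for diacylated lipoproteins, was at 7.61 and 7.44, a difference of -0.18. All of this lipoprotein group lay on the lower side in Nlrp6-/-, and none reached 1.5-fold. Tlr4, the lipopolysaccharide receptor, was at 6.76 and 6.40, with the most negative difference of the surface group at -0.36.

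The 4 differences spanned 0.18 log2 units, with a median of -0.30. By itself a shift of this size was common on these arrays: 49.2% of genes above both floors were lower by any amount, and Tlr4 lay at percentile 11.5 of their differences, Tlr2 at 13.7, Tlr1 at 17.5 and Tlr6 at 26.2. Among 422 genes measured by several probe sets above both floors, the probe sets of 1 gene disagreed by a median of 0.31, and in 42.2% of them by at least the difference of Tlr4. Tlr5, the flagellin receptor, had a level of 2.98 in WT against 3.04 in Nlrp6-/-, under the floor on both arrays, so it has no measured difference. Tlr11 and Tlr12, mouse receptors for protozoan profilin that are outside the 10, were also under both floors, at 2.91 and 2.59 for Tlr11 and 2.20 and 2.34 for Tlr12.

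Of the endosomal receptors Tlr7, Tlr8 and Tlr13 differed by more than any surface receptor. Tlr7 had a level of 6.15 in WT against 7.10 in Nlrp6-/-, a difference of 0.96, and 164 of the 8560 genes above both floors, Tlr7 included, had a difference at least as high. Tlr8 was at 5.02 and 5.93, a difference of 0.91, and 193 genes, Tlr8 included, were at least as high. Both lay well above their floors on both arrays. Tlr13 had a level of 6.23 in WT against 5.38 in Nlrp6-/-, a difference of -0.85, and 72 genes, Tlr13 included, had one at least as low. The differences of Tlr7 and Tlr13 were thus 1.81 log2 units apart. Probe sets of 1 gene disagreed by 0.85 or more in 30 of the 422 genes, or 7.11%.

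Tlr9 had a level of 5.91 in WT against 5.81 in Nlrp6-/-, a difference of -0.10 at percentile 35.2. Tlr3 was at 2.69 in WT, under the floor, and at 3.57 in Nlrp6-/-, 0.35 above it. Against the WT floor Tlr3 was at least 1.24-fold higher in Nlrp6-/-, a bound of 0.31, which is under the 1.5-fold rule. The median of the 5 endosomal genes was 0.88 with Tlr3 at its measured level and 0.31 with Tlr3 at its bound, so it rests on how that dim gene is read.

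**Figure D2:**
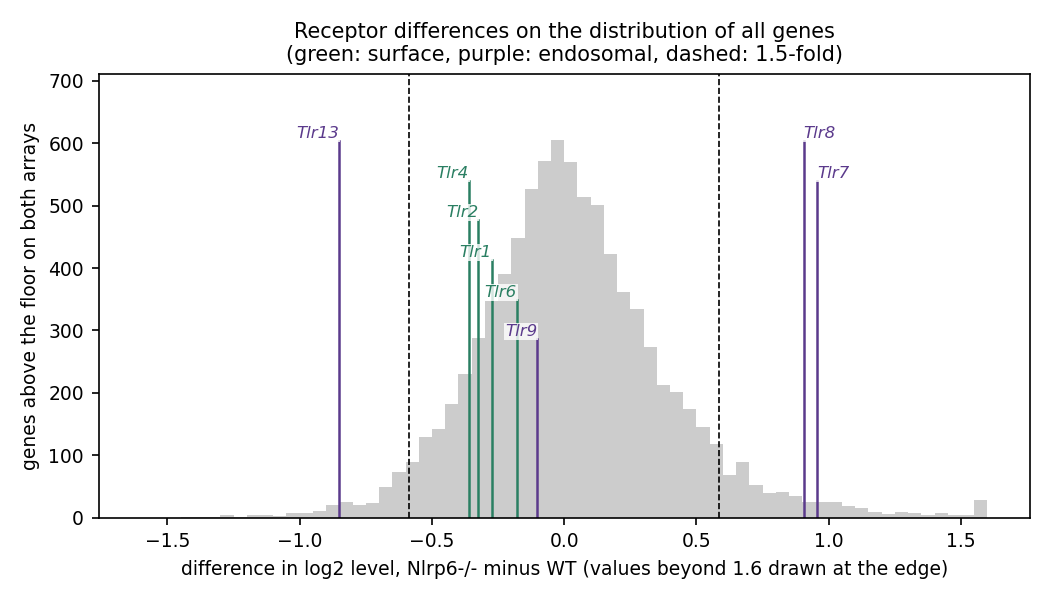
Differences of the 8 receptors above both floors (vertical lines, Nlrp6-/- minus WT, log2) on a histogram of the 8560 genes above both floors, with dashed lines at 1.5-fold. Tlr7 and Tlr8 lie in the upper tail at 0.96 and 0.91 and Tlr13 in the lower tail at -0.85, while the surface receptors fall between -0.36 and -0.18.

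Several receptor genes are neighbours in the genome. In the order of protein-coding genes in the RefSeq annotation, Tlr7 and Tlr8 stand next to each other, and their differences were 0.05 apart. Of the genes flanking the pair, Tmsb4x, which encodes an actin-binding peptide, had a level of 9.84 in WT against 9.79 in Nlrp6-/-, and Prps2 was under the floor on both arrays. Tlr1 and Tlr6 are also adjacent, with differences of -0.27 and -0.18. Beside Tlr13 lie Atp7a, a copper transporter, at -0.24, and Pgk1, a glycolytic enzyme, at -0.10. Other detected flanking genes differed by more or by similar amounts. Tmem131l beside Tlr2 was at -0.50, and Twf2 and Alas1 beside Tlr9 were at 0.46 and -0.08. Klf3 beside Tlr1 was at 0.22 and Fam114a1 beside Tlr6 at -0.21.

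Tlr7, Tlr8 and Tlr13 are X-linked, so the sex-linked transcripts bear on how the arrays compare. Xist, the RNA of the inactive X, had a level of 9.93 in WT against 9.66 in Nlrp6-/-. The Y-linked genes Kdm5d, Eif2s3y and Uty were under the floor on both arrays, with a highest level of 2.31. Xist was thus high, and these Y-linked transcripts undetected, on both arrays alike.

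The start regions of Tlr8, Tlr13, Tlr3 and Tlr6 are shown as a description, and any link of their letters to the differences was not tested. Tlr6 was picked because the search found interferon-type letters there. RefSeq sequences of build GRCm38.p6 were matched for 8 of the 10 members, with 10 start sites. Tlr1 and Tlr6 had 2 starts each, and Tlr4 and Tlr7 had none, so their start regions were not searched. Each run below is the 250 bases before a start, read on the gene's strand, and capitals mark motif letters found on either strand: the interferon-stimulated response element (GAAA, any 2 bases, GAAA), TTCNNNGAA (gamma-activated site) or GAGGAA (core of the site of the myeloid factor PU.1). Tlr8 lies at chrX:167264330-167264579 on the minus strand, Tlr13 at chrX:106143025-106143274 on the plus strand, Tlr3 at chr8:45410381-45410630 on the minus strand and the first Tlr6 start at chr5:64959167-64959416 on the minus strand.
Tlr8: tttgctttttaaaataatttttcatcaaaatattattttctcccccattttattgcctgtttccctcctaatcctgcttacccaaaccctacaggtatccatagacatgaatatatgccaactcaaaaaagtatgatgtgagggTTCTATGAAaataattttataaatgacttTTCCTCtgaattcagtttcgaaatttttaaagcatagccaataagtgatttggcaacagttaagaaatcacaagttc
Tlr13: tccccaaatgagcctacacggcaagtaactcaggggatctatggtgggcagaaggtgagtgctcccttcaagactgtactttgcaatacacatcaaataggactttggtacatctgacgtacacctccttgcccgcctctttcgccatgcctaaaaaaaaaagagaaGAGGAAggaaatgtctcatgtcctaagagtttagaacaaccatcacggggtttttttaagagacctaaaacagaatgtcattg
Tlr3: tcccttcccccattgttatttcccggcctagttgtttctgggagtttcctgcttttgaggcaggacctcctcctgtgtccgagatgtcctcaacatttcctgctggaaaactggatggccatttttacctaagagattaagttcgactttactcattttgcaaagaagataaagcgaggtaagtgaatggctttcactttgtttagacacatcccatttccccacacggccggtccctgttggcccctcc
Tlr6: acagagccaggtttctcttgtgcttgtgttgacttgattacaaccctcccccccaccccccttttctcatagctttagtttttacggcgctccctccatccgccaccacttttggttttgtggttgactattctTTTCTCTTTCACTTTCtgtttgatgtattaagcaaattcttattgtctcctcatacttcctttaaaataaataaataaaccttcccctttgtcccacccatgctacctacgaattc

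The Tlr8 window, of a gene higher in Nlrp6-/-, held TTCNNNGAA starting 106 bases before the start and the reverse of GAGGAA at 77 bases. The Tlr13 window, of a gene lower in Nlrp6-/-, held GAGGAA at 83 bases. Neither window, nor that of Tlr3, held an exact match to the letters of the interferon-stimulated response element, and looser forms were not searched. Exact matches occurred in 1 of the 10 windows of the 8 members, that of the first Tlr6 start. They were a pair of overlapping matches on the reverse strand beginning 116 and 110 bases before the start. GAGGAA also occurred in the windows of the first Tlr1 start and of Tlr9, and TTCNNNGAA in that of the second Tlr1 start. Tlr1 and Tlr9 did not reach 1.5-fold, at -0.27 and -0.10. Over 32851 promoters of the same length, 2.98% held the interferon letters, 7.02% held TTCNNNGAA and 23.3% held GAGGAA, against 1, 2 and 4 of the 10 windows. These matches describe letters, not bound sites.

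The other genes of the pathway were taken from lists by role. Of 65 listed genes that could be named on the array, 60 were detected; Nlrp6-/- exceeded WT by 1.5-fold or more for 7 and lay as far below it for 3, shares to be read against the same 6.22% and 3.06%, with a median difference of -0.07. Among the co-receptors Ly96, or MD-2, which holds lipopolysaccharide on Tlr4, had a level of 6.60 in WT against 7.34 in Nlrp6-/-, a difference of 0.74. Tlr4 itself went the other way, so receptor and partner were 1.10 apart.

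The related pair of Cd180, a Tlr4-like receptor without a TIR domain, and its partner Ly86, or MD-1, had the same arrangement. Cd180 was at 4.71 and 4.36, a difference of -0.35, and Ly86 was at 6.75 and 7.51, a difference of 0.76, so that they were 1.11 apart. Cd14, which passes lipopolysaccharide to Tlr4 and Ly96, was at 10.78 and 10.56, a difference of -0.22. Lbp, the plasma protein that delivers lipopolysaccharide, was at 3.66 and 4.34, a difference of 0.68, with its WT level only 0.40 above the floor. Clec7a, the beta-glucan receptor that cooperates with Tlr2, was lower in Nlrp6-/- by the 1.5-fold rule, at 8.37 and 7.74. Cd36, a scavenger receptor that aids Tlr2, was at -0.57, with its Nlrp6-/- level only 0.32 above the floor. In all, 3 of the 7 detected co-receptor genes were higher and 1 lower, beside 6.22% and 3.06% of all detected genes.

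None of the 9 genes that move and process endosomal receptors was 1.5-fold apart, beside 9.27% of all detected genes in either direction. Their differences lay between -0.29 and 0.00, with a median of -0.11. By any amount 8 of the 9 were lower, beside 49.2% of all genes above both floors. Unc93b1, the chaperone that brings endosomal receptors out of the endoplasmic reticulum, had a level of 7.86 in WT against 7.77 in Nlrp6-/-. The largest differences were those of Slc15a4, an endolysosomal transporter needed for Tlr7 and Tlr9 responses, at -0.29, the cathepsin genes Ctsb at -0.28 and Ctss at -0.20, and Cnpy3, a folding cofactor of the receptors, at -0.22.

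Among the adaptors none of the 5 detected reached 1.5-fold, beside 9.27% of all detected genes in either direction. Myd88 had a level of 6.65 in WT against 7.18 in Nlrp6-/-, a difference of 0.53 at percentile 91.9. Ticam1, which encodes TRIF, was at 4.29 and 4.37, and Tirap, which links Tlr2 and Tlr4 to MyD88, was at 3.76 and 3.51. Pik3ap1, which couples the receptors to phosphoinositide 3-kinase, was at -0.30, and Ticam2, which joins Tlr4 to TRIF, at 0.09.

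Of 13 detected kinases and ubiquitin ligases 1 was 1.5-fold apart, beside 9.27% of all detected genes. It was Ikbkg, the regulatory subunit of the NF-kB-activating kinase, at -1.32. The catalytic subunit gene Ikbkb was at 0.04. Next came Map3k8, a kinase of the ERK branch, at 0.49, Tab3, an adaptor of the kinase TAK1, at -0.36, and Irak2, a kinase recruited by MyD88, at -0.20. Among the transcription factors Irf7, which acts below Tlr7 and Tlr9 in interferon induction, had a level of 6.17 in WT against 6.95 in Nlrp6-/-, a difference of 0.78, and Irf3, which acts below Tlr3 and Tlr4, was at -0.41. Irf1 was at -0.27 and Rela, an NF-kB subunit, at -0.19.

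The negative regulators had 1 gene in each direction among 9 detected. Tollip, which limits IRAK signalling, had a level of 5.02 in WT against 4.38 in Nlrp6-/-, a difference of -0.64. Usp25, a deubiquitinase, was at 8.46 and 9.14, a difference of 0.68. Cyld, a deubiquitinase of the NF-kB pathway, was at -0.29, and Tnfaip3, or A20, at -0.17. Of 11 detected genes that Toll-like receptor signalling induces, 2 were 1.5-fold higher, Cxcl10 at 1.10 and Il6 at 0.77, and none was lower, with Tnf at -0.48 and Il12b at 0.42. The WT level of Il12b was only 0.08 above the floor. Ifnb1 was under both floors. The counts of both lists stand beside 6.22% higher and 3.06% lower over all detected genes.

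**Figure D3:**
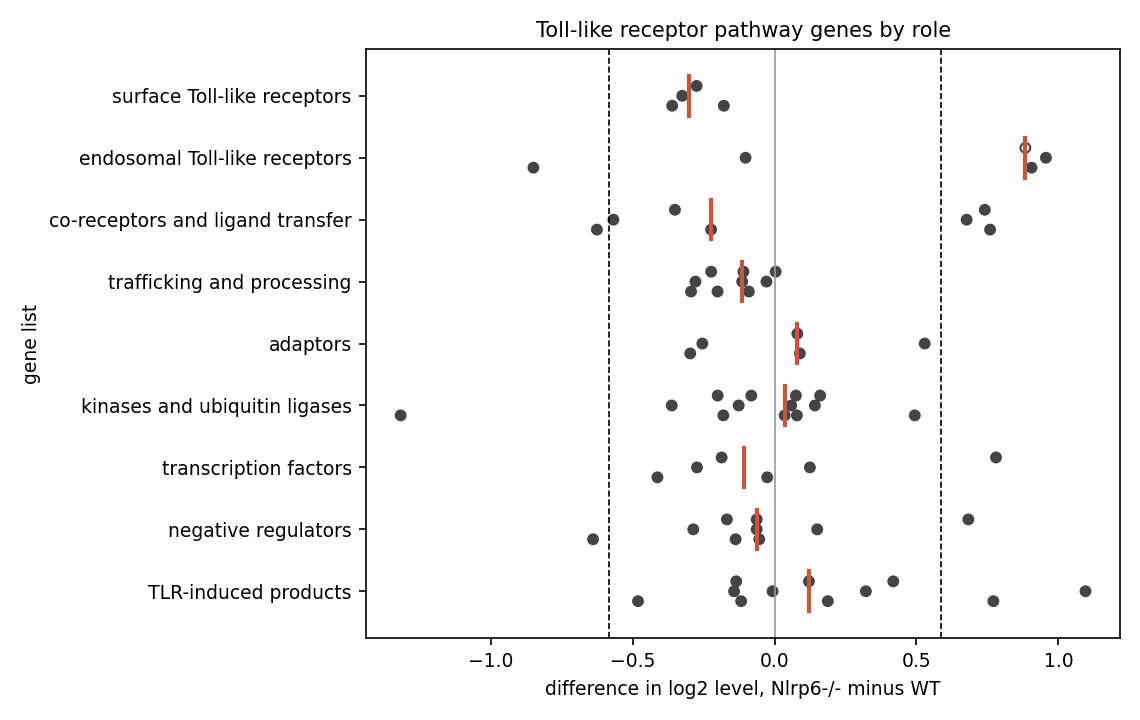
Differences of detected genes by list (points, Nlrp6-/- minus WT, log2), with the list median as a red bar and dashed lines at 1.5-fold, and an open point for Tlr3, detected on 1 array. The surface receptors lie close together on the lower side, the endosomal receptors and co-receptors fall on both sides, and the trafficking genes lie between -0.29 and 0.00.

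Of 8 monocyte markers on the array 7 were detected, all on both arrays, while Ly6c1 was under both floors, at 1.91 and 2.05. Itgam, which encodes CD11b, had a level of 8.46 in WT against 8.25 in Nlrp6-/-, Ly6c2 at 9.06 and 9.36, Csf1r at 9.40 and 9.28 and Ccr2 at 5.98 and 6.30. Fcgr1, F13a1 and Lyz2 were at 0.88, 1.06 and -0.33. Of the 7 detected monocyte markers 2, Fcgr1 and F13a1, were higher by the 1.5-fold rule and 0 lower. Over all detected genes the shares were 6.22% and 3.06%. Nlrp6 itself was under both floors, at 2.32 and 2.67, and so gives no check of the genotype.

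Markers of several other cell types were higher on the Nlrp6-/- array too, and their part in the receptor differences was not tested. Over all detected genes 6.22% were higher by the 1.5-fold rule. Of 11 detected epithelial markers 9 were, with median levels over all 12 of 4.11 in WT and 5.58 in Nlrp6-/-, led by Lypd8 (1.87), Muc13 (1.79) and Lgals4 (1.57), and Epcam was at 4.71 and 5.74. Of 5 detected B and plasma cell markers 3 were higher, Mzb1 by 1.62, Jchain by 0.88 and Cd79a by 0.74, while the B cell genes Ms4a1 and Pax5 were under both floors. Of 7 detected neutrophil markers 3 were higher: S100a8 by 1.16, S100a9 by 1.03 and Retnlg by a bound of 1.95, with Ly6g at 3.32 and 3.58. The others did not reach 1.5-fold, with Cxcr2 at a bound of 0.30, Csf3r at -0.05 and Mmp8 at -0.17. The neutrophil genes Ngp, Camp and Ltf were under both floors. Of 9 stromal and endothelial markers, all detected, 3 were higher, Mgp by 1.45, Col1a2 by 1.19 and Dcn by 0.98, while the other stromal and endothelial genes lay between Cdh5 at -0.39 and Col3a1 at 0.32.

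Plasmacytoid dendritic cells are known for high Tlr7 and Tlr9, and their part in the receptor levels was not tested. Their marker Siglech was under the floor on both arrays, at 2.77 and 2.92, as were Flt3, Xcr1 and Zbtb46, and neither of the 2 detected dendritic cell markers, Cd209a at -0.43 and Ccr7 at -0.13, was 1.5-fold apart. None of the 4 detected T and NK cell markers was 1.5-fold apart, with Cd3d at 0.46, Cd8a at a bound of 0.38 and Cd3e at 4.21 in WT and 3.98 in Nlrp6-/-. The counts of the dendritic cell and the T and NK cell lists stand beside 9.27% of all detected genes in either direction. In these sorted populations, fewer cells that use a receptor and less of its RNA per cell cannot be told apart.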

How the data were processed

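RNA of Ly6C-high colon monocytes was measured on 2 arrays, 1 per genotype as labelled. Per the labels' protocols, 10 ng of RNA was amplified to cDNA and 3.7 µg of cDNA was hybridised for 20 h. The authors computed robust multiarray averages (RMA) with the oligo package in R 2.15.1, per the labels' protocols, and the deposited table holds log2 RMA levels. RMA forces both arrays onto 1 distribution, so a shift of all transcripts cannot be seen. The labels do not say which arrays entered the normalization.

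Probe sets were named from the platform annotation. Of 41345, 23521 had 1 symbol, 1814 several and 16010 none, and only the first were used, taking the probe set with the highest mean for each gene. Of 151 listed genes 139 had one. Where 1 of the arrays was under its floor, the difference was replaced by a bound against that floor. Calls were made in Python 3.11.15 with pandas 2.3.3, and loess used statsmodels 0.14.6. The rule for calls was checked on simulated arrays with known changes. No significance test was possible, since 1 array per genotype gives no spread within a group.

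The members, lists and alternatives were chosen with earlier results of these data known. Named genes were the members, Tlr11, Tlr12, Nlrp6, Cd14, Ly96, Myd88, Ticam1, Tirap, Unc93b1, the defining cell markers Itgam, Ly6c2, Ccr2, Csf1r, Cd3e, Ly6g, Epcam and Cd79a, and in each list those with the largest differences (up to 4 in pathway lists and 3 in marker lists). Outside that rule, and with their values already seen, the text names Ikbkb, Cd180, Cd36, Ifnb1, Ly6c1, the sex-linked genes, the genes flanking receptors and further dendritic, B cell, neutrophil and stromal markers. The comparison of receptors with their partners, and the motifs TTCNNNGAA and GAGGAA, were also chosen then. Coordinates are those of the RefSeq promoter table, since the build behind the array annotation is not given.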

Additional observations from a re-analysis of the deposited data

How the results depend on the processing

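Alternatives were subtraction of the median difference, subtraction of a loess curve (span 0.3), renewed quantile normalization, floors at the 90th or 99th percentile or none, averaging of probe sets (which moved 1 of 23 values, since nearly all listed genes had 1 probe set), and a laxer and a stricter (2-fold) threshold. Under the 3 scalings all 30 member differences kept their sign, and the largest move was 0.04. The levels were already normalized by RMA, and the median difference of genes above both floors was 0.0044. Subtracting that median or renewing the normalization could therefore move them little. The 30 include Tlr5, under both floors, and Tlr3, under the WT floor. Over the counts, list medians and member differences, 108 of 116 values under the alternatives other than that averaging stayed within 1.5 times the count or 1 SD (0.19) of the silent receptors' differences, and no value past 1.5-fold changed sign. At 2-fold, 0 receptors were higher and 0 lower, and 1 pathway gene was higher and 1 lower. At the laxer threshold, 2 receptors and 10 pathway genes were higher, and 3 receptors and 8 pathway genes lower. Tlr2 at -0.33 passed this threshold and Tlr1 at -0.27 did not. The lower receptors thus included Tlr4 and Tlr2, at percentiles 11.5 and 13.7 of the differences of genes above both floors. The share of all detected genes passing the laxer threshold is not given, so its counts have no background to be read against. With the floor at the 99th percentile the endosomal median was 0.40, as Tlr3 was no longer detected, and the co-receptor median was 0.26 instead of -0.22, with fewer genes counted. Without a floor, or with the floor at the 90th percentile, Tlr3 was counted too, giving 3 higher receptors. These counts lie within 1.5 times the reported 2 and so are among the 108. No paired analysis was possible because each genotype has 1 array. Differences near the floor, such as that of Tlr3, are limited by signal over background.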
